A study of Xenopus tropicalis with 7 samples.

Results

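The genes described here encode neurotransmitter receptors of *Xenopus tropicalis*, 65 genes of the 19884 in the table of poly(A) RNA reads. They were chosen by symbol alone: names that begin with gria, grin, grik, grm, gabr, glra, glrb, htr, drd or chrm and go on with a subunit digit or letter, and names that begin with chrna or chrnb and a digit, without *chrna1* and *chrnb1* of the muscle receptor. No measured value entered the pattern, although it was chosen with earlier results of these data known. The pattern matched 70 names, and 5 of them were set apart. *htra1*, *htra2* and *htra4* are serine proteases that share their opening letters with the serotonin receptors, *grina* encodes a membrane protein that is no subunit of the NMDA receptor, and *chrna1.2* is another copy of the muscle subunit gene. The table lists 55 of the 65 genes in lower case and 7 in capitals (*chrna10*, *chrnb4*, *drd4*, *gabrb1*, *grin2b*, *htr3a* and *htr3b*), and it gives a protein identifier in place of a symbol for 3 (*chrm4*, *gabrb2* and *gria2*), which were named through RefSeq. The glycine receptor subunit *glrb* has no letter or digit after its stem, so the pattern missed it, and its values stand with the accessory proteins.

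By transmitter, 23 genes encode glutamate receptors (4 AMPA, 7 NMDA, 4 kainate and 8 metabotropic), 11 GABA-A and 3 glycine receptor subunits, 13 acetylcholine receptors (9 neuronal nicotinic subunits and 4 muscarinic receptors), 11 serotonin receptors and 4 dopamine receptors. Of these, 41 are subunits of ligand-gated ion channels and 24 are G protein-coupled receptors.

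The embryos were wild-type embryos of the Nigerian (Cam4) strain. Xbra/Xbra3 KD embryos had received, when they consisted of 1 cell, 20 ng in total of morpholinos that block the splicing and the translation of *Xbra* and *Xbra3*, the Brachyury paralogues of this frog. Control embryos had received 20 ng of a control morpholino at that time. Both groups were collected at the early tadpole stage (stage 32) in 3 libraries each, and 1 library came from uninjected embryos at the tail bud stage (stage 20). The RNA of a library amounted to that of 2 whole embryos, so no value here belongs to a single cell type, and a morpholino leaves the gene itself in place. In such bulk RNA, fewer cells of a type and less RNA per cell cannot be told apart.

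Neurotransmitter receptors receive the chemical signal at a synapse. Ionotropic receptors are channels assembled from several subunits that open when the transmitter binds: AMPA, NMDA and kainate receptors excite a neuron through glutamate, nicotinic receptors through acetylcholine and the serotonin-gated channel through serotonin, whereas mature GABA-A and glycine receptors carry chloride and usually inhibit it. Metabotropic receptors act more slowly through G proteins. At the tadpole stages, frog embryos have a working spinal circuit for swimming in which glutamate drives the motor neurons, glycine inhibits neurons on the opposite side, GABA stops swimming, and the motor neurons release acetylcholine onto muscle.

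The libraries held from 73740300 to 120160026 reads. The targeted *Xbra3* (listed as *t2*, ENSXETG00000026572) was 35.7-fold lower in the KD libraries (quasi-likelihood test of edgeR, FDR 0.000768), whereas *Xbra* (listed as *t*, ENSXETG00000005370) was 1.93-fold lower (FDR 0.0551). Of 16944 genes tested, 2443 (14.4%) had an FDR below 10%. Marker levels of several tissues moved with the groups. Of 16 neuronal markers, 15 were higher in the KD and 4 of them past the threshold (10 with the block), and their summed level was 1636 to 1970 CPM (reads of a gene scaled to a common library total) in the KD libraries against 1172 to 1471 CPM in the control libraries. Most of this sum came from *tubb2b* (828 to 973 against 547 to 717 CPM) and *prph* (275 to 333 against 132 to 199 CPM). Among the other markers, *isl1*, *isl2* and *stmn2* also separated the groups. The rest overlapped, among them *snap25* (94.4 to 141 against 93.6 to 128 CPM) and *scg2* (65.1 to 121 against 69.0 to 105 CPM). Of 11 markers of neural progenitors 6 rose, and of 16 muscle markers 14 fell, with a summed level of 8714 to 10780 CPM in the KD against 21571 to 22415 CPM in controls. Of 8 glial and neural crest markers 2 rose, and of 10 epidermal markers 1 rose and 1 fell. No marker was at 0 in a group, and the part of these tissues in the receptor values below was not tested.

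All 65 receptor genes had the 10 reads over the 6 stage 32 libraries needed for the test, from 18 to 9857 reads with a median of 737. Compared between Xbra/Xbra3 KD and control embryos, to ask how the receptors responded to the loss of Brachyury function, 2 of the 65 passed an FDR of 10%, both higher in the KD: *grik5* and *grm7*. This is 3.08% of the receptors, where 7.44% of all genes tested were called higher. No receptor was called lower in this main edgeR fit, against 6.98% of all genes. At an unadjusted p below 0.05 there were 8 receptors (12.3%, all genes 25.2%), 7 of them higher (*chrm5*, *chrnb4*, *glra3*, *grik5*, *grin3b*, *grm6* and *grm7*) and 1 lower (*grm4*), with no AMPA, GABA-A, serotonin or dopamine receptor among them. Of the 63 receptors with an adjusted p from DESeq2, it called 5 higher (all genes 10.1%; *chrnb4*, *glra3*, *grik5*, *grm6* and *grm7*) and 1 lower (all genes 10.7%; *grm4*). Without control replicate 3 edgeR called none, where the share of all genes called in either direction also fell, from 14.4% to 5.14%. Without control replicate 2 it called 4 higher (*glra3* and *grm6* in addition; all genes 11.7% in either direction). Without control replicate 1 it called 1 lower (*grm4*; all genes 8.08% in either direction).

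Same-numbered KD and control libraries deviated from their group means together, and a fit that compares them within each number, the replicate block, called more receptors. With the block 15 were called higher (23.1%, all genes 19.2%): *chrm5*, *chrna2*, *chrna7*, *chrnb4*, *drd2*, *drd4*, *gabra2*, *glra1*, *glra3*, *gria3*, *grik5*, *grin3a*, *grin3b*, *grm6* and *grm7*. Called lower were 3 (4.62%, all genes 19.0%): *gabrb2*, *gabrp* and *grm4*. The counts with the block were thus unequal in direction for the receptors and nearly equal for all genes. This was not particular to the receptors. With the block, 10 of 16 neuronal markers were called higher and 0 lower, and 8 of 11 neural progenitor markers higher and 1 lower. Higher and lower calls numbered 4 and 0 for glial and neural crest, 2 and 2 for epidermal, and 1 and 15 for muscle markers.

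Over all 65 receptors the median log2 fold change was 0.18, against 0.01 over all genes tested, and 41 (63.1%) had a value above 0, against 51.0% of all genes. The median was 0.36 over the neuronal markers, 0.58 over the neural progenitor markers and 0.20 over the glial and neural crest markers. It was -0.0029 over the epidermal and -1.36 over the muscle markers. The receptor median depended on single libraries. Taken within each pair of same-numbered libraries it was 0.40, 0.04 and 0.29 (SD 0.18), and it turned to -0.06 without KD replicate 2 and to -0.02 without control replicate 1, while it reached 0.49 without control replicate 2. All 3 KD libraries stood above all 3 control libraries for 8 receptors (12.3%, all genes 15.9%): *chrm5*, *chrnb4*, *gabrd*, *glra3*, *grik5*, *grin3b*, *grm6* and *grm7*. All 3 stood below for 1 receptor, *grm4* (all genes 14.6%). The KD library was the higher of the pair in all 3 pairs for 21 receptors (32.3%, all genes 29.9%) and in none for 5 (7.69%, all genes 28.6%).

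**Figure D1:**
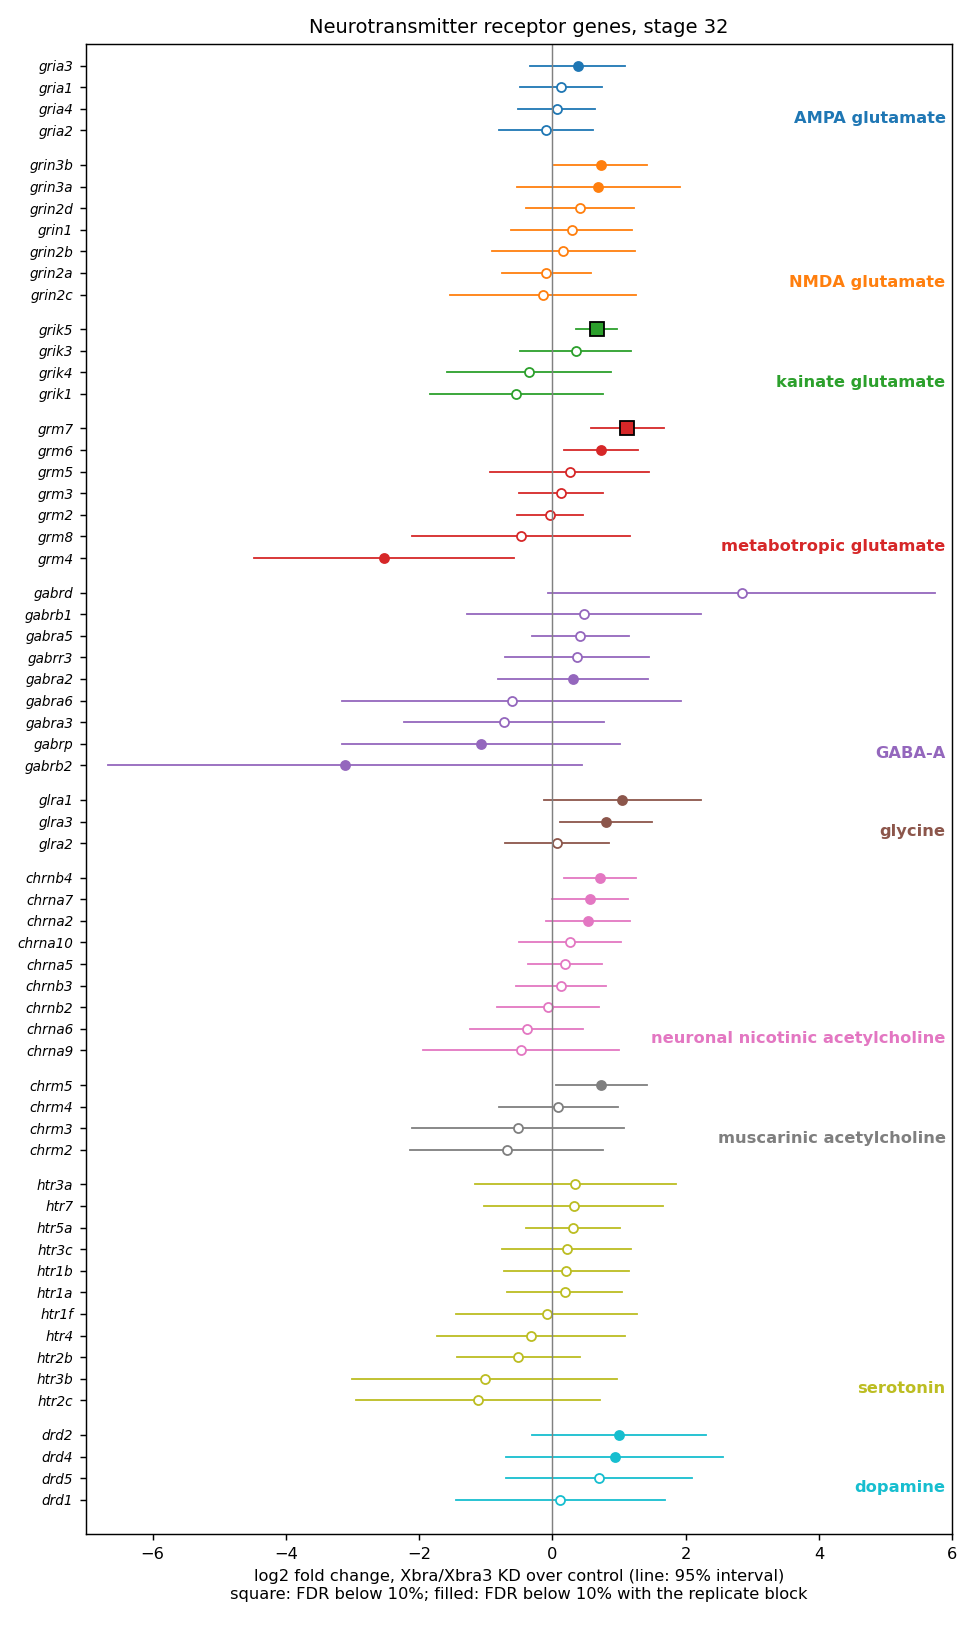
Log2 fold change of 62 of the 65 receptor genes in Xbra/Xbra3 KD over control embryos at stage 32 (x axis) by gene and family (y axis), with 95% intervals as lines. Squares are the 2 genes with an FDR below 10% (*grik5* and *grm7*), and filled symbols the 18 genes past it with the replicate block, 15 to the right of 0 and 3 to the left.

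The share of genes called went up with read depth. Of the receptors, 16 had between 10 and 200 reads over the 6 libraries and 23 between 200 and 1000, and none of these 39 was called, where 5.79% and 9.57% of all genes in the same ranges were. Of 20 receptors with 1000 to 5000 reads 1 was called (all genes 14.2%), and of 6 with 5000 to 20000 reads 1 (all genes 17.8%). With the block 3 of the 16 and 5 of the 23 were called (all genes 16.5% and 30.8%), 7 of the 20 (all genes 40.6%) and 3 of the 6 (all genes 44.1%). Fold changes of genes with few reads are loosely bounded, since the median standard error of a log2 fold change was 0.68 over all genes of the lowest range and 0.24 at 1000 to 5000 reads.

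Kainate receptors are glutamate channels with roles on both sides of the synapse, and *grik5* (ENSXETG00000031503) encodes a subunit that binds kainate with high affinity and forms channels only together with other kainate subunits. It stood at 18.9, 22.4 and 20.2 CPM in KD replicates 1, 2 and 3 and at 12.8, 13.8 and 12.2 CPM in control replicates 1, 2 and 3. Every KD library was above every control library, and the replicates of a group lay close together. *grik5* thus rose from 12.9 ± 0.789 to 20.5 ± 1.76 CPM (SD, n = 3 libraries; 1.58-fold, log2 fold change 0.66, SE 0.13, FDR 0.0252 from edgeR's quasi-likelihood test). Its FDR was 0.111 without control replicate 3 and stayed below 10% without any other single library. The other high-affinity subunit, *grik4* (ENSXETG00000017031), had 0.723, 1.55 and 1.75 CPM in the KD and 0.617, 2.54 and 2.00 CPM in controls, and these overlapped (log2 fold change -0.35, FDR 0.733). *grik1* and *grik3*, subunits that can form a channel by themselves, had log2 fold changes of -0.54 and 0.35 with overlapping libraries.

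Metabotropic glutamate receptors fall into groups, and the members of group III, *grm4*, *grm6*, *grm7* and *grm8*, lower cyclic AMP and in mammals mostly sit at the presynaptic terminal, with *grm6* known from the retina. Within this group the values went both ways. *grm7* (ENSXETG00000015711) was at 6.01, 8.10 and 7.54 CPM in the KD replicates and at 2.67, 4.30 and 2.91 CPM in the controls. The groups did not overlap, and within each group replicate 2 was the highest. It rose from 3.29 ± 0.880 to 7.22 ± 1.08 CPM (SD, n = 3; 2.18-fold, log2 fold change 1.13, SE 0.24, FDR 0.0308 from edgeR), and its FDR was 0.126 without control replicate 3. Both listed transcripts of *grm7* had more reads in every KD library than in the control library of the same number, with 182, 211 and 226 reads against 106, 161 and 78 for one of them and 433, 433 and 602 against 192, 322 and 146 for the other.

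*grm6* (ENSXETG00000021218) was at 4.68, 6.50 and 6.22 CPM in the KD and at 2.73, 4.40 and 3.33 CPM in the controls. All KD libraries were above all controls, but the FDR of 0.107 missed the threshold (1.66-fold, log2 fold change 0.73, SE 0.24), and it was 0.00739 with the block. *grm4* (ENSXETG00000006732) lay in the other direction, with 1, 8 and 4 reads after KD and 12, 54 and 14 in the controls. This corresponds to 0.00977, 0.101 and 0.0364 CPM against 0.107, 0.481 and 0.182 CPM, with no overlap (log2 fold change -2.52, 95% interval -4.48 to -0.57, FDR 0.111, with the block 0.00823). *grm8* had a log2 fold change of -0.47 and its libraries overlapped.

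The remaining metabotropic genes did not separate the groups. *grm2* (ENSXETG00000032539), a group II receptor that also lowers cyclic AMP, had 5.93, 8.03 and 5.59 CPM in the KD and 5.63, 7.89 and 6.44 CPM in the controls (log2 fold change -0.03, 95% interval -0.53 to 0.46), a difference smaller than the spread between replicates in either direction. *grm3* of the same group had 2.77, 4.48 and 4.17 CPM against 2.78, 4.42 and 3.19 CPM (log2 fold change 0.13, FDR 0.819). *grm5*, a group I receptor that releases calcium from internal stores, was at 0.26.

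AMPA receptors carry most fast excitation. None of the 4 subunit genes passed the test (all genes 14.4%), and their median log2 fold change was 0.09. *gria2* (ENSXETG00000021375), whose edited subunit keeps calcium out of the channel in mammals, had 7.93, 12.0 and 7.77 CPM in the KD and 6.89, 14.4 and 8.19 CPM in the controls. Replicate 2 was the highest library in both groups, and the groups overlapped (log2 fold change -0.10, SE 0.31, FDR 0.886). *gria3* (ENSXETG00000019504) had 12.3, 16.7 and 12.2 CPM against 6.60, 15.6 and 9.40 CPM, higher in the KD in each of the 3 pairs although the groups overlapped (log2 fold change 0.38, FDR 0.494, with the block 0.0668). *gria1* and *gria4* were at 0.13 and 0.06.

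NMDA receptors need both glutamate and depolarisation to open. The obligatory subunit *grin1* had a log2 fold change of 0.29, and the glutamate-binding *grin2a*, *grin2b*, *grin2c* and *grin2d* lay between -0.14 and 0.41, with overlapping libraries for each. *grin2a* (ENSXETG00000008002) had 1.72, 3.39 and 2.78 CPM in the KD and 2.44, 3.33 and 2.56 CPM in the controls (log2 fold change -0.09, FDR 0.888). The pair of *grin3* genes, whose subunits bind glycine and lower the calcium passed by the channel, had the highest log2 fold changes of the family. *grin3b* (ENSXETG00000021607) had 1.96, 2.79 and 2.00 CPM against 1.48, 1.66 and 0.858 CPM without overlap (log2 fold change 0.72, SE 0.30, FDR 0.186, with the block 0.0307). *grin3a* (ENSXETG00000029920) had 4.71, 1.47 and 2.21 CPM against 2.81, 0.872 and 1.55 CPM. For this gene replicate 2 was the lowest library in both groups, the groups overlapped, and each KD library was above its same-numbered control (log2 fold change 0.69, FDR 0.466, with the block 0.0231).

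**Figure D2:**
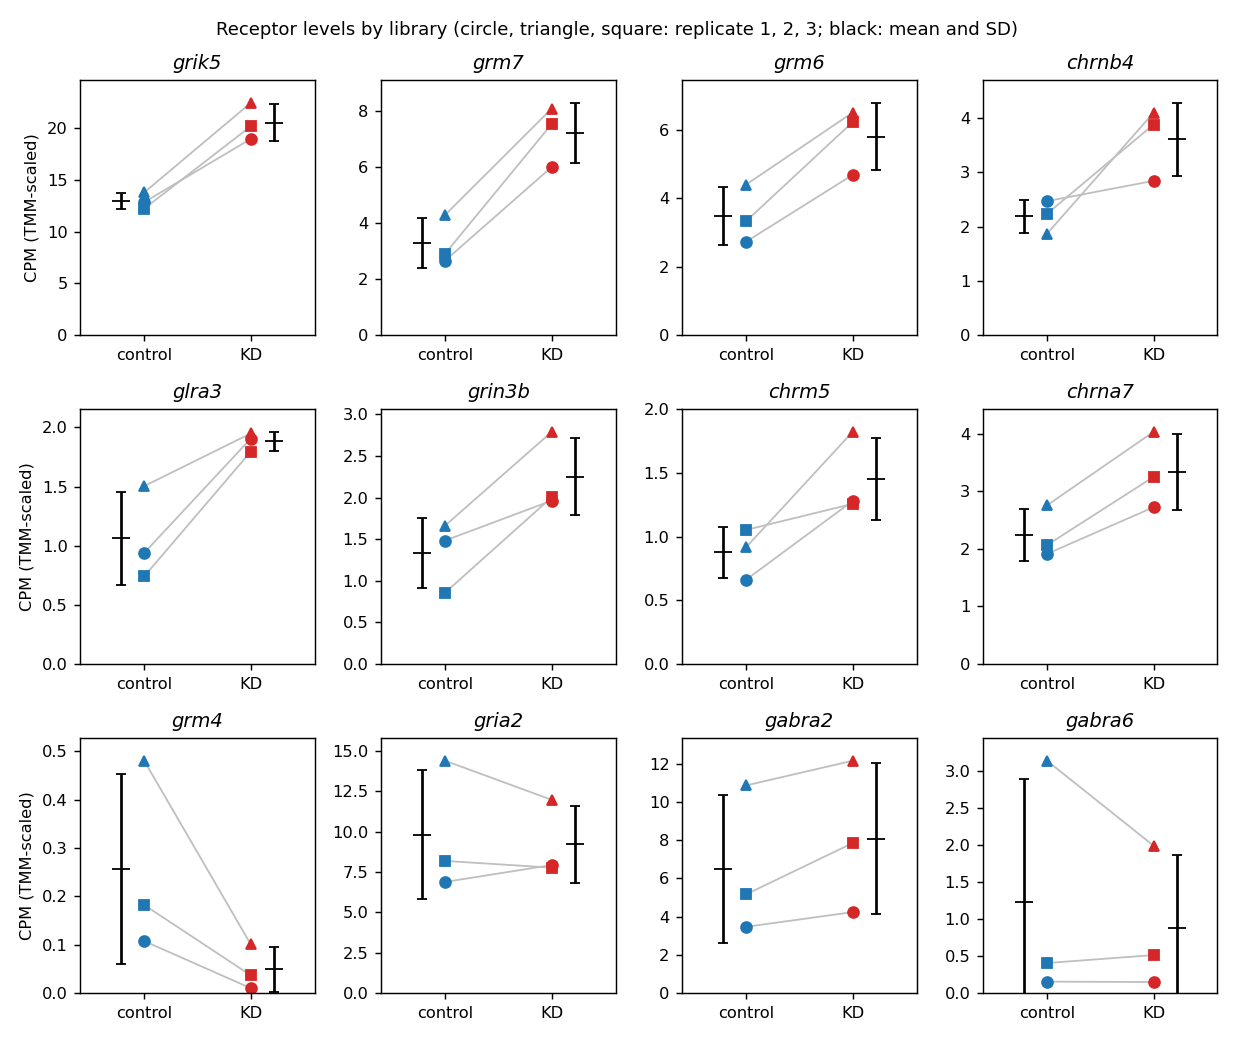
Level in CPM (y axis) of 12 receptor genes in each control (blue) and Xbra/Xbra3 KD (red) library at stage 32, with lines joining libraries of the same number and the mean and SD (n = 3) in black. The KD libraries lie above all controls for *grik5*, *grm7*, *grm6*, *chrnb4*, *glra3*, *grin3b* and *chrm5* and below them for *grm4*, whereas for *gria2*, *gabra2* and *gabra6* replicate 2 is the highest library of both groups and the groups overlap.

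GABA-A receptors are chloride channels of several subunits, in most of which α and β subunits bind GABA between them. None of the 11 genes passed the test (all genes 14.4%), and 6 of them had a log2 fold change above 0 (median 0.26). *gabra2* (ENSXETG00000008421) had 4.23, 12.2 and 7.85 CPM in the KD and 3.46, 10.9 and 5.16 CPM in the controls (log2 fold change 0.30, SE 0.49, FDR 0.751). The spread between replicates of one group was larger than the difference between the groups, while the KD library was the higher in all 3 pairs, and the FDR with the block was 0.0983.

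The α subunit genes *gabra3* and *gabra6* differed widely between replicates. *gabra6* (ENSXETG00000010239), a subunit of cerebellar granule cells in mammals, had 15, 158 and 56 reads in the KD and 17, 352 and 31 reads in the controls, so that both replicate 2 libraries stood far above the others and the groups overlapped (log2 fold change -0.61, 95% interval -3.15 to 1.94). *gabra3* (ENSXETG00000026177) had 0.332, 1.06 and 1.08 CPM against 0.653, 2.63 and 0.689 CPM, with control replicate 2 apart from the rest (log2 fold change -0.72, FDR 0.537). *gabra5*, a further α subunit, was at 0.42.

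Several GABA-A genes had few reads. *gabrb2* (ENSXETG00000011917) had 0, 2 and 0 reads in the KD and 3, 18 and 0 reads in the controls. Its summed reads gave a ratio of 10.2 of control over KD, with an exact 95% interval of 2.49 to 89.5 that covers counting error only, and 18 of the 21 control reads came from replicate 2 (FDR 0.258, with the block 0.0829). For *gabrd*, a subunit of receptors outside synapses, 3, 10 and 3 reads stood against 2, 0 and 0, a ratio of 8.26 of KD over control (exact interval 1.94 to 74.0, FDR 0.208). *gabrp*, which in mammals is found in epithelia such as the uterus, had 18, 2 and 12 reads in the KD and 46, 2 and 21 reads in the controls, with replicate 2 the lowest in both groups (log2 fold change -1.07, FDR 0.511, with the block 0.0674).

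Glycine receptors carry the inhibition that crosses the spinal midline. All 3 α subunit genes had a log2 fold change above 0, and none passed the main test (all genes 14.4%). *glra3* (ENSXETG00000002460) had 1.91, 1.95 and 1.80 CPM in the KD and 0.939, 1.50 and 0.741 CPM in the controls. The groups did not overlap, with the KD libraries close together (1.74-fold, log2 fold change 0.80, SE 0.30, FDR 0.140, with the block 0.0280, and 0.0638 without control replicate 2). *glra1* (ENSXETG00000001966), which forms the adult receptor in mammals, had 0.391, 0.968 and 0.510 CPM against 0.241, 0.454 and 0.143 CPM. KD replicate 1 overlapped control replicate 2 (log2 fold change 1.05, SE 0.51, FDR 0.247, with the block 0.0322). *glra2* (ENSXETG00000011875), the embryonic α subunit in mammals, had 2.70, 4.98 and 4.59 CPM against 2.79, 5.58 and 3.25 CPM and thus overlapping groups (log2 fold change 0.07, FDR 0.927).

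Nicotinic receptors of neurons are cation channels, some of a single α subunit and most of α with β. Of the 9 genes 6 had a log2 fold change above 0 (median 0.19). *chrnb4* (ENSXETG00000033968), a β subunit of the receptors of autonomic ganglia in mammals, was the first receptor gene to miss the threshold. It had 2.84 and 3.88 CPM in KD replicates 1 and 3, more than either in KD replicate 2, and 2.47, 1.87 and 2.24 CPM in the controls. From 2.19 ± 0.302 CPM in controls to 3.61 ± 0.671 CPM in the KD (SD, n = 3) the groups did not overlap (1.64-fold, log2 fold change 0.72, SE 0.23, FDR 0.103, with the block 0.0349). Its FDR fell below 10% with scaling by library size only (0.0880) and with edgeR's filterByExpr (0.0968). *chrna7* (ENSXETG00000016395), whose subunit forms a calcium-permeable receptor by itself, had 2.73, 4.04 and 3.25 CPM against 1.91, 2.76 and 2.07 CPM. Only KD replicate 1 lay within the control range (log2 fold change 0.56, FDR 0.206, with the block 0.0300).

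*chrna2* (ENSXETG00000017553) had 8.16, 14.6 and 9.60 CPM in the KD and 6.44, 9.72 and 6.20 CPM in the controls, overlapping but higher in all 3 pairs (log2 fold change 0.53, FDR 0.274, with the block 0.0162). The accessory subunit gene *chrna5* (ENSXETG00000023896), with the most reads of the nicotinic genes, had 11.9, 16.5 and 13.0 CPM against 12.1, 15.6 and 8.53 CPM (log2 fold change 0.19, SE 0.24, FDR 0.675). *chrna6* was at -0.38, *chrnb2* at -0.07, *chrnb3* at 0.13, *chrna10* at 0.26 and *chrna9* at -0.47, each with overlapping libraries. *chrna9* and *chrna10* form the receptor of hair cells in mammals.

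The nicotinic receptor of muscle, outside the rule, moved the other way. All 7 tested genes of the muscle receptor and its anchoring were lower in the KD, and 6 of them were past the threshold. The α subunit *chrna1* fell from 93.1 ± 2.48 to 41.8 ± 13.7 CPM (SD, n = 3; 2.23-fold, FDR 0.0200 from edgeR) and the δ subunit *chrnd* from 84.0 ± 7.66 to 41.9 ± 10.1 CPM (2.01-fold, FDR 0.0202). The copy *chrna1.2* (ENSXETG00000025418), which the rule matched, had 31.0, 35.3 and 55.4 CPM in the KD and 90.1, 86.7 and 109 CPM in the controls (2.34-fold lower, FDR 0.0186). The authors discarded read pairs that aligned to several genes, so reads shared by the *chrna1* copies are not in these counts. Muscle markers fell alongside, with 14 of 16 past the threshold.

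Muscarinic receptors are G protein-coupled receptors for acetylcholine. *chrm5* (ENSXETG00000017868), which acts through calcium release, had 1.28, 1.82 and 1.26 CPM in the KD and 0.662, 0.917 and 1.05 CPM in the controls. The groups did not overlap (1.66-fold, log2 fold change 0.73, SE 0.29, FDR 0.170, with the block 0.0478). *chrm4* (ENSXETG00000031642), which lowers cyclic AMP, had 1.94, 0.654 and 1.11 CPM against 1.31, 1.07 and 1.16 CPM. Its KD libraries lay on both sides of the controls (log2 fold change 0.09, FDR 0.915). *chrm2* was at -0.69 and lower in all 3 pairs, and *chrm3* was at -0.51.

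Serotonin receptors numbered 11, of which *htr3a*, *htr3b* and *htr3c* encode channel subunits and the others G protein-coupled receptors. None was called without the block (all genes 14.4%) or with it (all genes 38.2%). None had groups without overlap, where 15.9% of all genes had the KD above and 14.6% below. Their median was only 237 reads over the 7 libraries, so the absence of calls does not show that they were alike in the groups. The genes with the most reads were *htr5a* and *htr1a*. *htr5a* (ENSXETG00000006585) had 2.56, 5.27 and 3.78 CPM in the KD and 2.62, 3.94 and 2.76 CPM in the controls (log2 fold change 0.30, FDR 0.583). *htr1a* (ENSXETG00000014812), an autoreceptor of serotonin neurons in mammals, had 1.43, 2.43 and 1.96 CPM against 0.930, 2.36 and 1.81 CPM (log2 fold change 0.18, FDR 0.813). The largest log2 difference was that of *htr2c* (ENSXETG00000024787), with 4, 19 and 5 reads in the KD and 9, 39 and 16 reads in the controls and an interval of -2.95 to 0.71. *htr1b* (ENSXETG00000011743) had 1.26, 2.20 and 1.95 CPM against 0.930, 2.47 and 1.21 CPM (log2 fold change 0.21).

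All 4 dopamine receptor genes had a log2 fold change above 0 (median 0.81), on a median of only 260.5 reads over the 7 libraries. *drd2* (ENSXETG00000011662), which lowers cyclic AMP, had 0.254, 0.993 and 0.610 CPM in the KD and 0.188, 0.463 and 0.234 CPM in the controls. KD replicate 1 lay inside the control range (log2 fold change 1.00, SE 0.57, FDR 0.319, with the block 0.0408). *drd4* (ENSXETG00000032197), of the same class, had 0.332, 1.41 and 0.939 CPM against 0.161, 0.917 and 0.247 CPM, with overlap (log2 fold change 0.93, SE 0.70, FDR 0.457, with the block 0.0413). *drd1* and *drd5*, which raise cyclic AMP, were at 0.12 and 0.69.

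Summed over the 65 genes, receptor levels were 160, 230 and 180 CPM in KD replicates 1, 2 and 3 and 124, 207 and 136 CPM in the controls. Control replicate 2 was above KD replicates 1 and 3, so the groups overlapped, and each KD library was above its same-numbered control. The kainate sum was the one family sum without overlap, 21.4 to 28.2 CPM in the KD against 15.6 to 20.9 CPM in controls, and most of it was *grik5*. Neuronal markers were also higher in the KD (15 of 16, with 4 past the threshold), and their part in the receptor sums was not tested.

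Replicate 2 stood apart in both groups for many receptors, and also for the neuronal markers named below. It was the highest of the 3 libraries in the KD and in the controls for 41 of the 65 genes (63.1%), against 24.5% of all genes tested. The level in replicate 2 over the mean of replicates 1 and 3 had a median of 1.42 in the KD and 1.56 in the controls over the receptors, and of 0.997 and 1.00 over all genes. Scaling of the libraries holds the median over all genes near 1, so it cannot show whether replicate 2 differed for genes other than receptors. All 4 dopamine and all 3 glycine receptor genes had replicate 2 highest in both groups, as did 6 of 8 metabotropic glutamate, 3 of 4 AMPA and 3 of 4 kainate genes, but 1 of 4 muscarinic genes. *gabra6* had the highest ratios that could be drawn, 6.05 in the KD and 11.3 in the controls. *grin3a* (0.425 and 0.400) and *gabrp* (0.176 and 0.0520) were below 1 in both groups. A high replicate 2 was not particular to the receptors. Among the neuronal markers, *map2*, *elavl4*, *snap25*, *tubb2b*, *tubb3*, *nefl*, *nefm*, *ina*, *syt1*, *stmn2*, *gap43* and *scg2* also had replicate 2 highest in both groups. The remaining markers *isl1*, *isl2* and *elavl3* did not, and *prph* had it lowest in both. The paper describes variation between its replicates, I and III against II, that set their clustering regardless of the KD. The labels give no batch or collection date for the numbers. Without replicate 2 in both groups, *grik5* and *grm7* were still the receptors called (all genes 8.38%), and the median log2 fold change was 0.29.

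**Figure D3:**
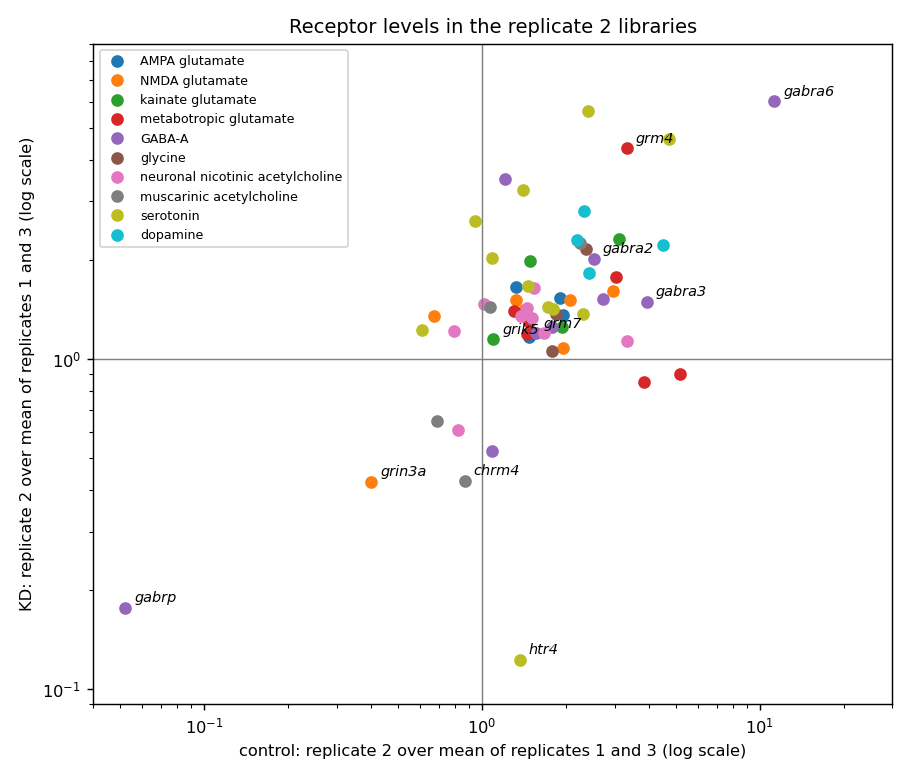
Level in replicate 2 over the mean of replicates 1 and 3, in control embryos (x axis) and in Xbra/Xbra3 KD embryos (y axis), both on log scales, for 63 receptor genes coloured by family, without 2 genes (*gabrb2* and *gabrd*) that had no reads in the libraries needed for a ratio. In this plot 50 genes lie above 1 in both groups and 5 below 1 in both.

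The stage 20 library was set against the stage 32 controls to see which receptors were already present at the tail bud stage. For this the 7 libraries were scaled together, so CPM values differ slightly from those above. There is 1 library at stage 20 and no test, and stage cannot be told apart from the injection of a control morpholino. A gene was counted as higher at stage 32 when the control mean was at least 2-fold above stage 20 and every control library was above it. By this rule 32 of the 65 receptors were higher at stage 32 (49.2%, all genes 20.0%), 3 were lower (4.62%, all genes 13.1%) and 30 were neither. With a 3-fold rule 26 were higher and 2 lower, which is not set against a share of all genes here.

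The 4 largest folds above stage 20 were those of GABA-A and serotonin receptor genes. *gabra6* had 0 reads at stage 20 and 0.151, 3.08 and 0.401 CPM in the controls, with most of the mean in control replicate 2. The mean was 43.6-fold higher when 3 reads are taken as the floor of the stage 20 library. With the exact counting interval of 0 reads the fold of the control mean was 35.4 or more. This limit covers counting error at stage 20 only and not the spread of the controls, whose SD of 1.63 CPM exceeded their mean of 1.21 CPM. *gabra3* had 5 reads (0.0463 CPM) at stage 20 and 0.648, 2.58 and 0.685 CPM in the controls (28.2-fold, exact counting interval of the stage 20 reads 12.1 to 86.8). *htr1b*, a presynaptic receptor in mammals, had 6 reads (0.0556 CPM) and from 0.923 to 2.43 CPM in the controls (27.3-fold, interval 12.6 to 74.5). The G protein-coupled serotonin receptor gene *htr4* had 2 reads (0.0185 CPM) and 0.426, 0.561 and 0.401 CPM in the controls (25.0-fold, interval 6.91 to 206). Next came *grm5* at 17.2-fold and *grik4* at 16.7-fold, on 6 and 11 reads at stage 20. *gabra2* had 43 reads (0.398 CPM) and 3.43, 10.7 and 5.13 CPM (16.1-fold, interval 12.0 to 22.3). Every control library was above the stage 20 library for each of these.

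In all, 6 receptors had no read at stage 20: *gabra6*, *gabrb2*, *gabrd*, *grm4*, *htr1f* and *htr2c*. The higher receptors took in 7 of 11 serotonin, 5 of 8 metabotropic glutamate, 5 of 11 GABA-A, 4 of 9 neuronal nicotinic, 3 of 7 NMDA, 3 of 4 dopamine, 2 of 4 AMPA, 2 of 4 kainate, 1 of 3 glycine and no muscarinic genes. In the AMPA family *gria3* and *gria4* were 3.49-fold and 2.94-fold higher, *gria2* was 1.45-fold higher and *gria1* 1.02-fold.

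The 3 receptors lower at stage 32 came from different families. *grin3a* was at 12.6 CPM at stage 20 (1359 reads) and at 2.79, 0.858 and 1.54 CPM in the controls, 7.29-fold lower. *chrm4* was at 4.20 CPM and then at 1.30, 1.05 and 1.15 CPM, 3.60-fold lower. *grm3* was at 7.46 CPM and then at 2.76, 4.35 and 3.17 CPM, 2.18-fold lower. Each control library was below the stage 20 library for all 3.

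Of the receptors called in the KD, *grik5* was at 20.8 CPM at stage 20 and at 12.7, 13.6 and 12.1 CPM in the stage 32 controls, 1.62-fold lower, while its KD libraries had 18.6, 21.9 and 19.6 CPM on this scale. *grm7* was at 1.85 CPM at stage 20, at 2.64, 4.23 and 2.89 CPM in the controls and at 5.91, 7.90 and 7.34 CPM in the KD. The *grik5* level of the KD libraries thus spanned that of the stage 20 library, and the *grm7* level was above both others.

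**Figure D4:**
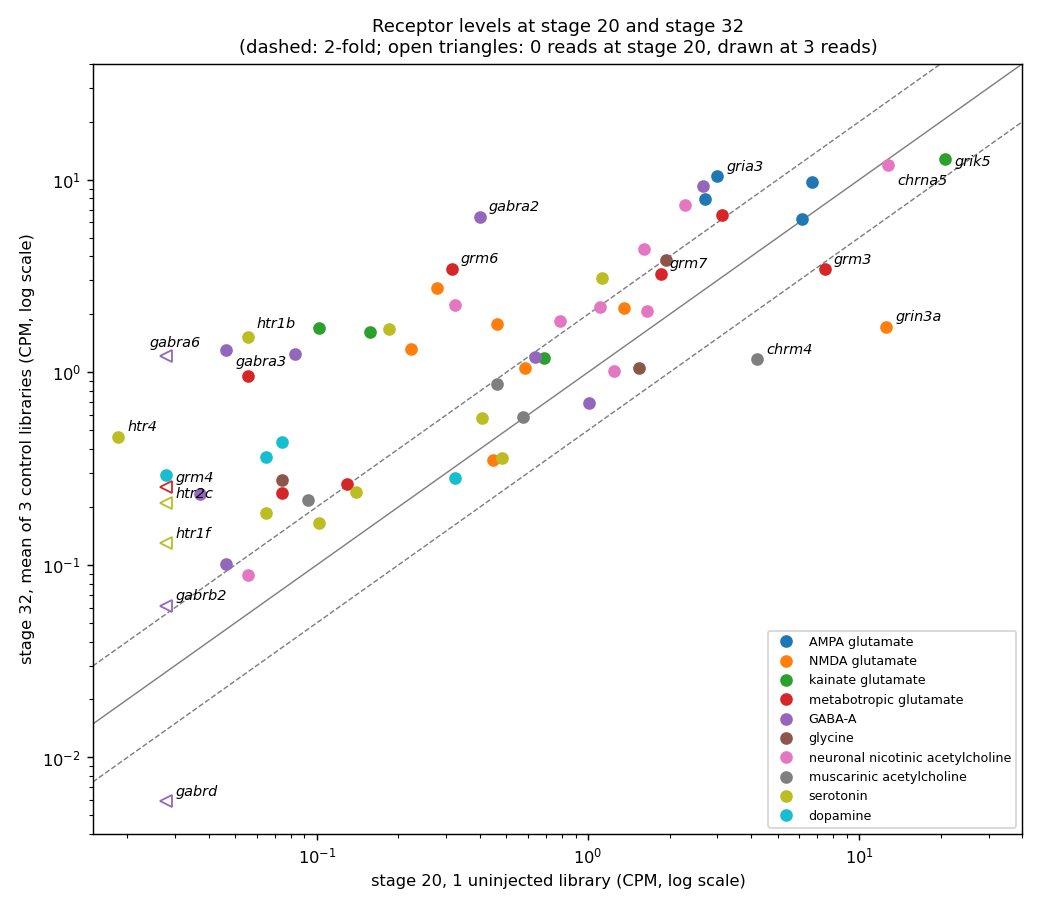
Level of the 65 receptor genes in the uninjected stage 20 library (x axis, CPM) and the mean of 3 control libraries at stage 32 (y axis, CPM), both on log scales and coloured by family. Dashed lines mark a 2-fold difference, and open triangles are the 6 genes with 0 reads at stage 20, drawn at the level of 3 reads. Of the genes with reads at stage 20, *grin3a*, *chrm4* and *grm3* lie below the lower dashed line.

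Genes that make and carry the transmitters were read beside their receptors. For comparison, edgeR called 7.44% of all genes higher and 6.98% lower, with the block 19.2% and 19.0%, and DESeq2 called 10.1% and 10.7%. An unadjusted p below 0.05 from edgeR was found for 25.2% of all genes. Of 4 acetylcholine genes 3 rose and 1 fell. The vesicular transporter *slc18a3* rose from 19.4 ± 1.53 to 34.1 ± 5.16 CPM (SD, n = 3; 1.76-fold, FDR 0.0190 from edgeR), the choline transporter *slc5a7* 1.71-fold (FDR 0.0362) and the synthetic enzyme *chat* 1.98-fold (FDR 0.0647), while the esterase *ache*, which breaks acetylcholine down and is also made by muscle, fell 1.48-fold (FDR 0.0927). Of 9 GABA and glycine genes, the neuronal glycine transporter *slc6a5* rose 1.95-fold (FDR 0.0851) and *shmt2*, a mitochondrial enzyme of serine and glycine metabolism, fell 1.77-fold (FDR 0.0161), where the block called 4 higher and 2 lower. Of 9 glutamate genes, *gls2*, a glutaminase, fell 2.18-fold (FDR 0.0142) and no other passed edgeR's test. DESeq2 also called 1 lower and 0 higher, while 1 was higher and 2 lower at an unadjusted p below 0.05, and the block called 3 in each direction. Of 11 genes for monoamines 0 were called by edgeR and by DESeq2, 0 had an unadjusted p below 0.05, and the block called 4 higher.

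Of 35 tested accessory and anchoring proteins of receptors, 2 rose (*grip1*, which binds AMPA receptors, and the scaffold *shank1*) and 2 fell (*homer2* and *homer3*, which bind group I metabotropic receptors), against 11 and 8 with the block. Beside this, 7.44% of all genes tested were called higher and 6.98% lower, and 19.2% and 19.0% with the block. *glrb*, the β subunit that ties glycine receptors to gephyrin, had 0.528, 0.679 and 0.784 CPM in the KD and 0.304, 0.445 and 0.130 CPM in the controls. It did not overlap between the groups (2.16-fold, log2 fold change 1.11, SE 0.42), and its FDR of 0.145 missed the threshold, with 0.0569 under the block.

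In the RefSeq annotation of a later assembly, where 63 of the 65 genes were found, some receptor genes are neighbours. *gabra2* lies next to *gabrb1*, *gabrb2* next to *gabra6*, *chrnb3* next to *chrna6* and *htr3a* next to *htr3b*, with no annotated protein-coding gene between them, while 1 such gene lies between *gria1* and *glra1*. Genes that do not code for protein were not counted. The log2 fold changes were 0.30 and 0.47 for *gabra2* and *gabrb1*, 0.13 and -0.38 for *chrnb3* and *chrna6*, and 0.35 and -1.02 for *htr3a* and *htr3b*. They were -3.11 and -0.61 for *gabrb2*, which had few reads, and *gabra6*, and 0.13 and 1.05 for *gria1* and *glra1*. The sign thus differed for *chrnb3* with *chrna6* and for *htr3a* with *htr3b*, and was shared in the other named pairs. None of these genes passed the main test (all genes 14.4%).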

How the data were processed

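Poly(A) RNA of 7 libraries was read from both ends along 55 bases. The authors aligned the pairs with Bowtie 0.12.7 to the Ensembl JGI4.1 transcriptome, dropped pairs on transcripts of different genes and deposited unnormalized read counts per transcript. The kit is not stated to keep the strand, so antisense reads cannot be told apart. In the header 6 empty fields precede the 7 names, so the names were given to the 7 value columns in turn. Transcripts were summed per gene. Symbols were matched without regard to case, and 711 of 766 protein identifiers were given a symbol from RefSeq (assembly UCB_Xtro_10.0, names and neighbours only). Sequences were not used here.

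The main test was run in edgeR 4.0.16 (R 4.3.3) on genes with 10 or more reads in total at stage 32. It used a quasi-likelihood fit after TMM scaling, without legacy dispersions or a block, with Benjamini-Hochberg adjustment over all 16944 genes and a threshold of an FDR below 10%. CPM are scaled by TMM and not by length, so levels are not compared between genes. For 3 against 3, the exact permutation p of 1 gene is never below 0.1. The labels call the libraries biological replicates without naming parents or clutches, so p-values measure the spread between these libraries. Tests were checked on simulated data, with planted changes of 2-fold or more and none in genes with few reads. Smaller changes, such as that of *grik5*, were not simulated.

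The replicate numbers pair the libraries, as their data show: deviations from the group mean correlated across genes at r = 0.573, 0.586 and 0.316 for equal numbers and at -0.510 to 0.00961 for others (over the receptors 0.609, 0.562 and 0.440). Alternatives were the block, DESeq2 1.42.0 and its size factors, library size only, no filter, filterByExpr, an FDR of 5%, the transcript with the most reads and leaving out each library. Legacy dispersions, leaving out replicate 2 of both groups and the block without each pair were chosen after seeing the data.

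Receptors, gene lists and tests were chosen with earlier results of these data known. Values are given for *Xbra*, *Xbra3*, receptors past the threshold and the first to miss it, the 2 with the most reads and the 1 with the largest log2 difference in each family, and the 3 largest folds above and below stage 20. Other receptors were named after their values were seen. A few receptors are counted but not reported here by name. The gene lists and neighbouring genes are described by counts, and the ChIP-seq and RT-qPCR samples were not used here.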

Additional observations from a re-analysis of the deposited data

How the results depend on the processing

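The count of 2 receptors higher and 0 lower was the same with DESeq2's size factors, no filter, an FDR of 5%, the transcript with the most reads, legacy dispersions and without replicate 2 of both groups. The share of all genes called in either direction was 14.4% in the main fit and 8.38% without replicate 2 of both groups. The receptor count was 3 and 0 with library size only (all genes 14.9%) and with filterByExpr (15.7%). It was 5 and 1 with DESeq2 (20.8%), and 15 and 3 with the replicate block (38.2%). With the block and without replicate 1, 2 or 3 of both groups it was 10 and 3, 11 and 2, and 10 and 4. All genes were then called at 24.4%, 27.4% and 38.9%. Leaving out 1 library gave 0 to 4 higher and 0 to 1 lower (all genes 5.14% to 11.7%), and medians of the log2 fold change from -0.059 to 0.49. The block changed the call of the 16 receptors it added and of no other receptor.

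The sign of several log2 fold changes turned. With the transcript with the most reads *gria2* was at 0.084, with library size only *grm2* at 0.040, and without replicate 2 of both groups *gria2* at 0.038, *gabra3* at 0.069 and *gabra6* at 0.33. With the block, *grin2a* was at 0.066 and *chrm4* at -0.36 without replicate 1, *gria2* at 0.042 and *gabra6* at 0.18 without replicate 2, and *glra2* at -0.11 and *grm2* at 0.051 without replicate 3. Without 1 library the lowest and highest values were -0.34 and 0.27 for *gria2*, -0.12 and 0.88 for *gabra2*, -0.32 and 0.14 for *grin2a*, -0.13 and 0.41 for *glra2*, -0.77 and 0.061 for *grik4*, -0.22 and 0.087 for *grm2*, -0.38 and 0.36 for *chrm4*, -0.0059 and 0.39 for *chrna5*, -0.12 and 0.50 for *htr1a*, -0.066 and 0.74 for *htr1b*, -1.07 and 0.26 for *gabra3*, -1.94 and 1.65 for *gabra6*, and -0.016 and 0.33 for *grm3*. None of these was called in those fits, and the cause was not tested. Without 1 library *grik5* was at 0.58 to 0.72 and *grm7* at 0.99 to 1.35, each called in 5 of 6 fits. The stage 20 counts stayed at 26 to 38 higher and 2 to 4 lower under every alternative tried, without shares of all genes beside them. Receptors with under 1000 reads, 39 of the 65, had wide intervals, and a low count of calls among them does not show that they were alike in the groups.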
